A study of Mus musculus with 29 samples.

Results

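The Bcl2 family of apoptosis regulators was followed through both cell systems of the study by the expression of 10 of its genes, which were fixed by name: the survival genes Bcl2, Mcl1 and Bcl2l1, the effector genes Bax and Bak1, and the BH3-only genes Bcl2l11, Bbc3, Pmaip1, Bid and Bad. All 10 were found among the 21819 genes listed for the B cell libraries and the 21675 listed for the fibroblast libraries. Proteins of this family meet at the outer membrane of the mitochondrion. Bax and Bak1 open pores in it when activated, survival proteins hold them in check, and BH3-only proteins either occupy the survival proteins or activate the effectors directly. In B cells the balance among them sets whether a cell lives, and loss of its pro-death arm is known to speed lymphoma in mice that overexpress Myc.

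Libraries of ribosome-depleted RNA came from 2 systems in which the transcription factor Myc was raised. Lymph node tumour cells of transgenic Eμ-myc mice (Tg_lymphnode, n = 3), spleen B cells of Eμ-myc mice (Tg_spleen, n = 4) and spleen B cells of wild-type mice (WT_spleen, n = 4) were all of C57BL/6 strain. The Eμ-myc transgene is driven by an immunoglobulin enhancer that is active in the B lineage. Spleen cells came from mice aged 6 to 8 weeks and were enriched on beads against B220, a surface protein of B cells, whereas tumour nodes were only dispersed into a suspension, so these libraries can hold other cells of the node, and the age of the tumour-bearing mice was not given. The fibroblasts were 3T9 cells of mixed strain from embryos at E13.5, all homozygous for a floxed c-myc allele and all infected in vitro with MycER, a Myc fusion protein switched on by 4-hydroxytamoxifen (OHT). They received ethanol (OHT_0h) or 400 nM OHT for 4, 8 or 16 h (OHT_4h, OHT_8h and OHT_16h, n = 4 each). RNA made during 10 min of labelling with 300 µM 4-thiouridine came from 1 library at 0 h (4sU_0h) and 1 library at 4 h (4sU_4h). The labels do not say whether libraries of a group came from separate animals or cultures, so p-values measure the spread between these libraries, part of which may be technical.

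The promoters of Bcl2, Mcl1, Bbc3 and Bax are shown because these genes were the ones called between tumours and WT_spleen: Bcl2 and Mcl1 were lower and Bbc3 and Bax higher in tumours. The sequences are from RefSeq on GRCm38.p6, cover 250 bases before to 30 bases after a transcription start, and are given 5′ to 3′ on the strand of the gene. Bases just after the start were found in a GENCODE transcript of the gene for Bax, but not for Bcl2, Mcl1 or the Bbc3 window shown. The starts of those windows were thus not matched to a transcript. Capitals mark CACGTG, the E-box hexamer that Myc is known to bind, which reads the same on both strands. The windows are chr1:106714261-106714540 (minus strand) for Bcl2, chr3:95658471-95658750 (plus strand) for Mcl1, chr7:16310181-16310460 (plus strand) for Bbc3 and chr7:45466869-45467148 (minus strand) for Bax.
Bcl2: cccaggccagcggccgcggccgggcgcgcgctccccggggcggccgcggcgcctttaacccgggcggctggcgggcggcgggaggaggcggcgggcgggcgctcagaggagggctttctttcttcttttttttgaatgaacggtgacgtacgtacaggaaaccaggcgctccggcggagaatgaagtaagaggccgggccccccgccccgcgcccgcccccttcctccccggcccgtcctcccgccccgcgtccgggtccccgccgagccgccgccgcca
Mcl1: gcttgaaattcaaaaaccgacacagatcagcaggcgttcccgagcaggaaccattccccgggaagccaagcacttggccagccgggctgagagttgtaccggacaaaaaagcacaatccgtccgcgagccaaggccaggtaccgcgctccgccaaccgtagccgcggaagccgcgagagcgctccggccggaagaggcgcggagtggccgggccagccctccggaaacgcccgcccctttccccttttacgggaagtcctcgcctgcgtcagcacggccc
Bbc3: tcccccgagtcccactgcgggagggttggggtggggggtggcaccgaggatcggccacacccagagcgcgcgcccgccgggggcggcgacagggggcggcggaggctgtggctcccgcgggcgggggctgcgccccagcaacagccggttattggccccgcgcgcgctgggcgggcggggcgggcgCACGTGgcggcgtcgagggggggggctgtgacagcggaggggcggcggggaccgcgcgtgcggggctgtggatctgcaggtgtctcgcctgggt
Bax: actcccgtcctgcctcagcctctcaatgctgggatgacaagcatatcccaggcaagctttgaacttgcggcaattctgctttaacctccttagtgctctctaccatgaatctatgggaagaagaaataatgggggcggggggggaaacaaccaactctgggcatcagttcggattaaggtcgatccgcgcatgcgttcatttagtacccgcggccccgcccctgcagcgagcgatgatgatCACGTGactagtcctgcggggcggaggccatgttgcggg

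The Bbc3 window holds 1 CACGTG, which begins 64 bases before the start, and the Bax window holds 1 that begins 9 bases before the start. A second CACGTG of Bax begins at base 36 after the start, beyond the printed stretch. The Bcl2 and Mcl1 windows hold none. Bbc3 has 3 windows in the table, and the one printed was chosen because it alone holds the hexamer. Windows of 300 bases were used for 9 members, 15 windows in all, and 2 of them hold the hexamer, 1 of the 3 Bbc3 windows and the single Bax window. Windows on 1 chromosome were left out for the members but kept among all windows, and Pmaip1 has no window in the member count. Of all 32851 such mouse windows, 7.15% hold it. A match describes the letters only, and binding was not measured in these libraries.

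Myc itself followed the genotype. It stood at 2020 ± 228 FPKM in Tg_lymphnode (SD, n = 3), 1556 ± 604 FPKM in Tg_spleen (SD, n = 4) and 226 ± 34.7 FPKM in WT_spleen (SD, n = 4). In the fibroblasts, where reads of the resident gene and of MycER cannot be told apart, Myc averaged 24.4 FPKM at 0 h, 10.9 at 4 h, 12.5 at 8 h and 9.78 at 16 h. The files give FPKM (fragments per kilobase of gene, scaled to library size) and no counts, so the depth of the libraries is not stated and could only be estimated. Summed FPKM ran from 4120000 to 6610000 in the B cell and tumour libraries and from 256000 to 349000 in total RNA of fibroblasts, so levels were compared within a system only. Fibroblast values level off: the top 0.1% of genes begin at 113 to 128 FPKM, next to the 118 FPKM that 2 reads per base would give at the read totals implied by the steps between low values. In 4sU libraries the top 0.1% begin at 66.5 FPKM (4sU_0h) and 70.03 FPKM (4sU_4h), below the 72.1 and 82.3 FPKM estimated in the same way. Levels of abundant fibroblast genes, and differences in them, may therefore be understated. How far this holds for Mcl1, Bak1 and Bax, which lie below the ceiling, was not tested. In B cell files the top 0.1% begin at 8310 to 18300 FPKM with no such ceiling.

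One tumour library went against its label as B cells. In the library labelled Tg_lymphnode replicate 3, the B cell receptor partner Cd79a stood at 55.6 FPKM, against 2113 and 1673 FPKM in the other tumours. Siglech, a receptor of plasmacytoid dendritic cells, stood at 2655 FPKM there and at 11.6 and 23.2 FPKM in the other tumours. The 8 dendritic cell markers were all higher in replicate 3 than in the other tumours and summed to 5177 FPKM, against 96.0 and 184 FPKM. The 10 T cell markers summed to 17810 FPKM in replicate 3 and to 773 and 1602 FPKM in the other tumours, with 2 of them higher and 2 lower there than in both others. The 8 B cell markers summed to 3834 to 21720 FPKM in Tg_lymphnode, 25380 to 38570 FPKM in Tg_spleen and 42640 to 47000 FPKM in WT_spleen, with none at 0 throughout a group. The 8 exocrine gland markers summed to 3015 to 13810 FPKM in Tg_lymphnode, 1.6 to 14.5 FPKM in Tg_spleen and 7.9 to 93.2 FPKM in WT_spleen, with 1 marker at 0 throughout each spleen group. Against WT_spleen, all 8 fibroblast markers and 5 of 8 stroma and endothelium markers were called higher in Tg_lymphnode, against 20.3% of all genes. There 8 of 10 macrophage and monocyte markers and 7 of 8 NK cell markers were called lower, against 17.7% of all genes. Of the B cell markers, 3 of 8 were called lower there, and 6 of 8 without replicate 3, where 21.1% of all genes were. In Tg_spleen vs WT_spleen, 6 of 8 NK cell markers, 5 of 8 dendritic cell markers and 3 of 10 T cell markers were called lower. So were 4 of 8 B cell markers, and 12.2% of all genes. None of these markers was called higher, against 15.7% of all genes. In that order, the median fold changes of these lists were -1.88, -1.13, -1.25 and -0.48 on the log2 scale. In bulk RNA, fewer cells of a type and less RNA per cell cannot be told apart, and the part that other cells play in the spleen and tumour results, or this library's identity in the tumour results, was not tested. The tumour comparisons were also fitted without replicate 3.

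**Figure D1:**
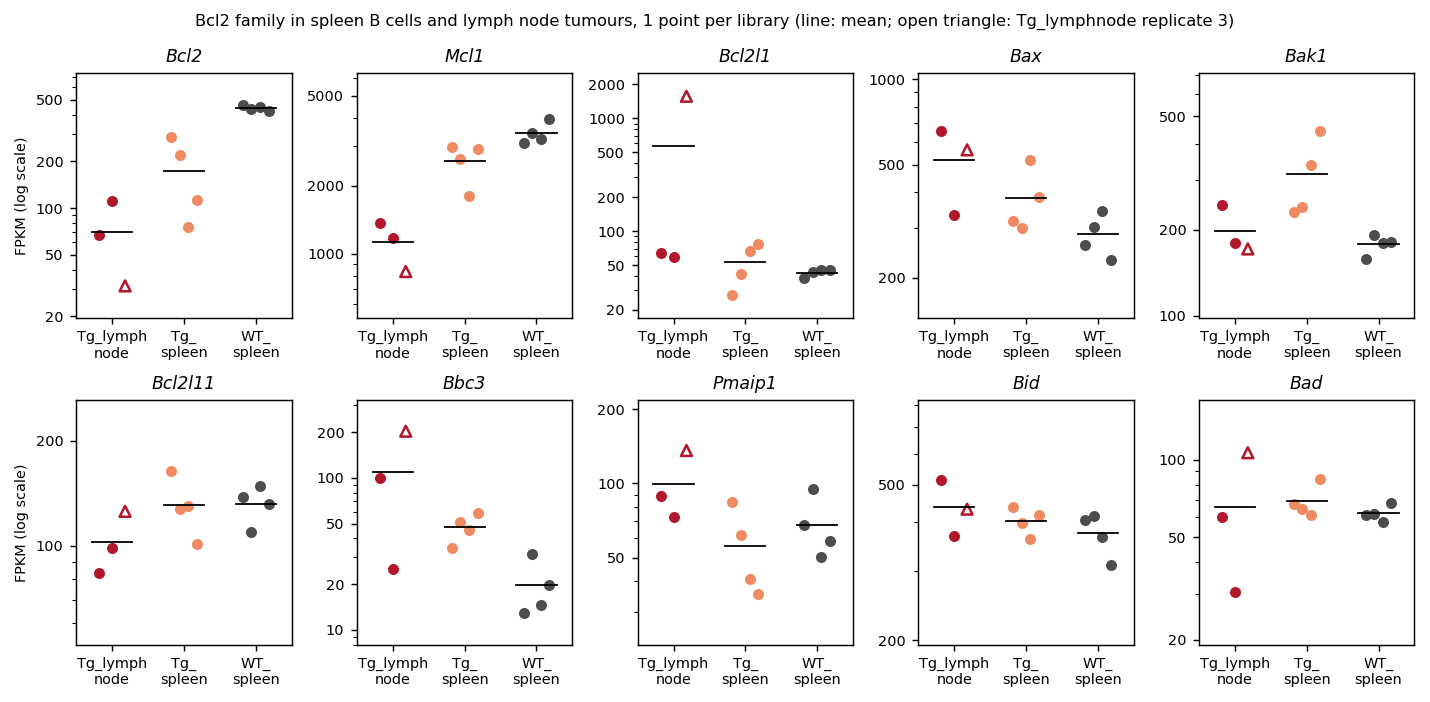
FPKM of the 10 Bcl2 family genes (log axis, scaled per gene) in 3 Tg_lymphnode, 4 Tg_spleen and 4 WT_spleen libraries; each point is a library, each line a group mean, and the open triangle is Tg_lymphnode replicate 3. Bcl2 lies between 419 and 462 FPKM in WT_spleen and at or under 286 FPKM in every transgenic library, and Bcl2l1 stands at 1571 FPKM in the open triangle only.

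The survival gene Bcl2, whose protein keeps mature lymphocytes alive, was lower in both transgenic groups. It had 67.3, 111 and 31.5 FPKM in Tg_lymphnode replicates 1 to 3, 286, 219, 75.3 and 112 FPKM in Tg_spleen replicates 2 to 5, and 462, 434, 445 and 419 FPKM in WT_spleen replicates 1, 3, 4 and 6. Every transgenic library lay under every WT_spleen library, and WT_spleen was far tighter than the other groups. The log2 fold change, on log2(FPKM + 0.5) throughout, was -1.53 (SE 0.35) in Tg_spleen vs WT_spleen, with a limma adjusted p of 0.0134. In Tg_lymphnode vs WT_spleen it was -2.82 (SE 0.36, limma adjusted p = 0.000981), and without Tg_lymphnode replicate 3 it was -2.34 (adjusted p = 6.69e-05). Between Tg_lymphnode and Tg_spleen the groups overlapped and the fold change of -1.29 (95% interval -2.54 to -0.04) did not pass the threshold (limma adjusted p = 0.203), as it did not without replicate 3 (-0.81, adjusted p = 0.375).

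Mcl1, a short-lived survival protein that B cells depend on at every stage, was by level the leading survival gene in all but 1 library. It had 1370, 1172 and 833 FPKM in Tg_lymphnode, 2981, 2621, 1806 and 2904 FPKM in Tg_spleen, and 3104, 3422, 3210 and 3939 FPKM in WT_spleen. The tumours lay under all other libraries, and Tg_spleen lay just under WT_spleen without overlap. Mcl1 fell by 1.63 on the log2 scale in Tg_lymphnode vs WT_spleen (SE 0.22, limma adjusted p = 0.00114), and the fold change was -1.43 without Tg_lymphnode replicate 3 (adjusted p = 0.000642). In Tg_lymphnode vs Tg_spleen the fold change was -1.2 (SE 0.27, limma adjusted p = 0.0409), a call that was lost on leaving out Tg_spleen replicate 2, 3 or 5 or any 1 tumour library (adjusted p 0.0574 to 0.12). In Tg_spleen vs WT_spleen the fold change was -0.43 (95% interval -0.87 to 0.02, adjusted p = 0.132), and with quantile normalization it was -0.90 and called (adjusted p = 0.0105).

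Bcl2l1 encodes Bcl-xL, the survival protein that guards immature lymphocytes. It had 63.6, 59.0 and 1571 FPKM in Tg_lymphnode, 27.4, 42.0, 67.3 and 76.9 FPKM in Tg_spleen, and 38.7, 43.3, 44.8 and 44.9 FPKM in WT_spleen. The high value belongs to the library that went against its B cell label, and the other tumours lay within the Tg_spleen range and above WT_spleen. No comparison passed: the fold change was 2.07 (95% interval -0.36 to 4.49) in Tg_lymphnode vs WT_spleen (limma adjusted p = 0.156) and 0.51 without Tg_lymphnode replicate 3 (adjusted p = 0.0602). In Tg_spleen vs WT_spleen it was 0.20 (95% interval -0.45 to 0.86, adjusted p = 0.629).

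In Tg_lymphnode replicate 3 the 3 survival genes changed places. Of their summed FPKM, Bcl2l1 took 64.5%, Mcl1 34.2% and Bcl2 1.29% in this library. In the other tumours Mcl1 took 91.3% and 87.4% and Bcl2l1 4.24% and 4.40%. Across Tg_spleen Mcl1 took 90.5% to 93.9% and Bcl2 3.62% to 8.69%, and across WT_spleen Mcl1 took 86.1% to 89.5% and Bcl2 9.52% to 12.8%. The genes next to Bcl2l1, in the order of RefSeq on GRCm38.p6, differed among themselves in replicate 3. Tpx2, a spindle protein and the nearest neighbour on one side, stood at 237 FPKM in replicate 3 and at 395 and 322 FPKM in the other tumours. Cox4i2 and Id1, nearest on the other side, stood at 1.6 and 3.9 FPKM in replicate 3 and were low in every library (at most 2.8 and 8.5 FPKM). Farther out on that side, Mcts2 stood at 521 FPKM in replicate 3 and at 274.5 and 353.5 FPKM in the other tumours. H13, a signal peptide peptidase beyond it, stood at 886 FPKM in replicate 3 and at 488 and 544 FPKM in the others. Both were higher in replicate 3 than in any other B cell or tumour library. The cause of the Bcl2l1 level was not tested.

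**Figure D2:**
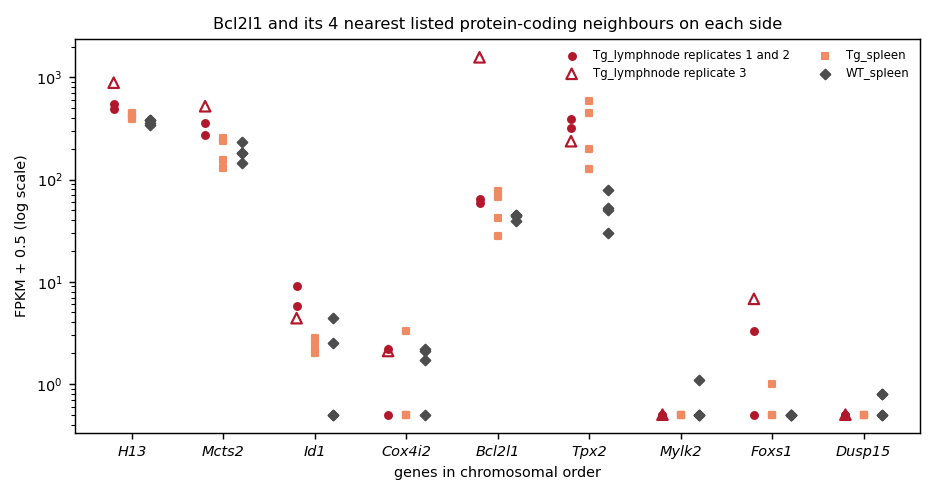
FPKM + 0.5 (log axis) of Bcl2l1 and the 4 nearest listed protein-coding genes on each side, in chromosomal order; points are Tg_lymphnode, Tg_spleen and WT_spleen libraries, with Tg_lymphnode replicate 3 as the open triangle. Bcl2l1 reaches 1571 FPKM in that library alone, while Tpx2 beside it is at 237 FPKM there and at 322 and 395 FPKM in the other tumours. Mcts2 and H13 are also highest in that library.

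Bax, an effector that moves from the cytosol to the mitochondrion, was higher in tumours by a call that rests on single libraries. It had 656, 334 and 564 FPKM in Tg_lymphnode, 318, 300, 521 and 386 FPKM in Tg_spleen, and 261, 301, 344 and 232 FPKM in WT_spleen. Tumour replicates 1 and 3 stood above every WT_spleen library and the remaining tumour lay inside the WT_spleen range. Bax rose in Tg_lymphnode vs WT_spleen by 0.82 on the log2 scale (SE 0.25, limma adjusted p = 0.033), and without Tg_lymphnode replicate 3 the fold change was 0.73 and not called (adjusted p = 0.0589). Leaving out WT_spleen replicate 1, 3 or 6 or Tg_lymphnode replicate 1 also ended the call (adjusted p between 0.0618 and 0.0958). In Tg_spleen vs WT_spleen the fold change was 0.40 (95% interval -0.03 to 0.84, adjusted p = 0.147).

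Bak1, the effector that resides in the mitochondrial membrane, rose in Tg_spleen. It had 245, 179 and 171 FPKM in Tg_lymphnode, 232, 241, 339 and 442 FPKM in Tg_spleen, and 158, 192, 180 and 181 FPKM in WT_spleen. Tg_spleen lay wholly above WT_spleen, while the tumours overlapped both groups. Bak1 rose in Tg_spleen vs WT_spleen by 0.77 on the log2 scale (SE 0.20, limma adjusted p = 0.0208), a call lost without WT_spleen replicate 1 (adjusted p = 0.0617) or 4 (adjusted p = 0.0548). In Tg_lymphnode vs WT_spleen the fold change was 0.15 (95% interval -0.23 to 0.52, adjusted p = 0.515), and in Tg_lymphnode vs Tg_spleen it was -0.62 (95% interval -1.24 to -0.01, adjusted p = 0.207). Without Tg_lymphnode replicate 3 these were 0.24 and -0.53, neither called by limma (adjusted p = 0.272 and 0.323). Beside the rise of Bak1 in Tg_spleen stand the lower NK, dendritic, T and B cell markers of that group, whose part in it was not tested.

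Among BH3-only genes, Bbc3, which encodes Puma, a target of p53 that binds every survival protein, was the one called with all libraries kept. It had 100, 25.3 and 203 FPKM in Tg_lymphnode, 34.7, 50.9, 45.4 and 58.6 FPKM in Tg_spleen, and 12.8, 31.4, 14.5 and 19.7 FPKM in WT_spleen. Tg_spleen lay wholly above WT_spleen, and of the tumours replicate 2 lay inside the WT_spleen range. Bbc3 rose in Tg_spleen vs WT_spleen by 1.31 on the log2 scale (SE 0.29, limma adjusted p = 0.0119), and when Tg_lymphnode joined the fit it was not called (adjusted p = 0.108). It rose in Tg_lymphnode vs WT_spleen by 2.09 (SE 0.67, limma adjusted p = 0.04), and without Tg_lymphnode replicate 3 the fold change was 1.43 and not called (adjusted p = 0.0742). Leaving out WT_spleen replicate 1, 4 or 6 or Tg_lymphnode replicate 1 also ended the tumour call (adjusted p between 0.077 and 0.104).

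Bcl2l11, which encodes Bim, the BH3-only protein that removes unwanted B cells, had 83.3, 98.2 and 126 FPKM in Tg_lymphnode, 164, 127, 130 and 101 FPKM in Tg_spleen, and 138, 110, 149 and 132 FPKM in WT_spleen. The groups overlapped. The fold change was -0.38 (95% interval -0.81 to 0.06) in Tg_lymphnode vs WT_spleen (limma adjusted p = 0.149), and without Tg_lymphnode replicate 3 it was -0.53 and called (adjusted p = 0.0371). In Tg_spleen vs WT_spleen it was -0.03 (95% interval -0.40 to 0.34, adjusted p = 0.917).

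Pmaip1, which encodes Noxa, a BH3-only protein that mainly engages Mcl1, had 88.6, 73.3 and 136 FPKM in Tg_lymphnode, 83.7, 61.8, 40.9 and 35.5 FPKM in Tg_spleen, and 67.8, 95, 50.1 and 58.5 FPKM in WT_spleen. The groups overlapped in every pair, and no fold change passed (limma adjusted p 0.175 to 0.417 over the 3 comparisons). Bid, which caspase 8 cleaves to link death receptors to the mitochondrion, ranged from 370 to 514 FPKM in Tg_lymphnode, 362 to 439 FPKM in Tg_spleen and 312 to 416 FPKM in WT_spleen. Bad, whose protein is switched off by phosphorylation under growth factor signalling, ranged from 30.6 to 106 FPKM in Tg_lymphnode, 61.2 to 84.0 FPKM in Tg_spleen and 57.2 to 67.8 FPKM in WT_spleen. Neither Bid nor Bad was called in any of the 3 comparisons. Without Tg_lymphnode replicate 3, the fold change in Tg_lymphnode vs WT_spleen was 0.29 for Pmaip1, 0.22 for Bid and -0.52 for Bad, against -0.09 for Bad with all libraries, and limma called none of them (adjusted p 0.151 to 0.406).

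**Figure D3:**
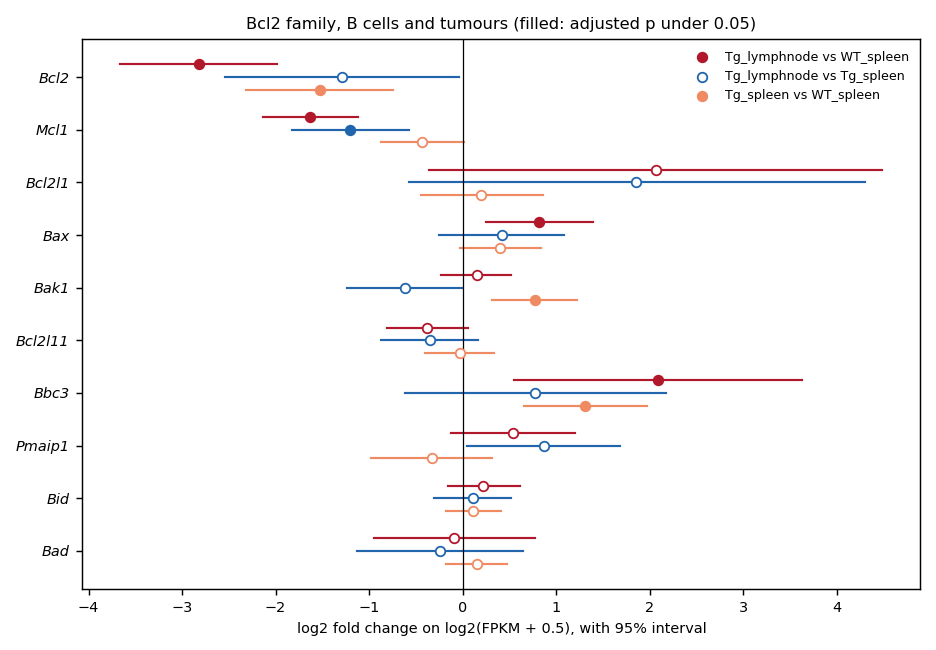
Log2 fold change (x axis) of each Bcl2 family gene in Tg_lymphnode vs WT_spleen, Tg_lymphnode vs Tg_spleen and Tg_spleen vs WT_spleen; points are limma coefficients, bars 95% intervals, and filled points have an adjusted p under 0.05. Bcl2 is filled at -2.82 and -1.53 against WT_spleen, and Bcl2l1 has the widest interval, -0.36 to 4.49 in Tg_lymphnode vs WT_spleen.

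Counted over the family, 2 of 10 members were higher and 1 lower in Tg_spleen vs WT_spleen, where 15.7% of all 14021 genes tested were called higher and 12.2% lower. The median fold change was 0.13 over the members and -0.05 over all genes. In Tg_lymphnode vs WT_spleen 2 members were higher and 2 lower, where 20.3% of all genes were called higher and 17.7% lower, with medians of 0.18 over the members and 0.05 over all genes. Without Tg_lymphnode replicate 3 no member was called higher and 3 were called lower (Bcl2, Mcl1 and Bcl2l11), where 22.9% of all genes were called higher and 21.1% lower. In Tg_lymphnode vs Tg_spleen no member was higher and 1 was lower, where 3.56% of all genes were called higher and 2.39% lower. Without replicate 3 no member was called in that comparison, where 3.37% and 2.76% were called higher and lower. With all libraries kept, the members' shares in the comparisons with WT_spleen lay near these backgrounds. Comparisons with WT_spleen share the same 4 control libraries, so they are not independent of each other.

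WT_spleen and Tg_spleen libraries split by the level of Rpph1, the RNA of RNase P, into 4 with 545400 to 735300 FPKM (Tg_spleen replicates 2 and 3, WT_spleen replicates 1 and 3) and 4 with 153500 to 215900 FPKM (Tg_spleen replicates 4 and 5, WT_spleen replicates 4 and 6). The labels do not say what this split is. Tg_lymphnode replicates 1 to 3 stood at 442600, 608600 and 517600 FPKM, all above the low set, whereas each spleen group has libraries in both sets. Tumour comparisons were not split or adjusted by Rpph1, so its part in them was not tested. Within the high set, the Tg_spleen vs WT_spleen fold change was -0.84 for Bcl2 (limma adjusted p = 0.0203), 1.05 for Bbc3 (adjusted p = 0.181) and 0.44 for Bak1 (adjusted p = 0.0918). Within the low set it was -2.23 for Bcl2 (adjusted p = 0.00348), 1.58 for Bbc3 (adjusted p = 0.017) and 1.10 for Bak1 (adjusted p = 0.0155). With Rpph1 as a covariate all 3 stayed called.

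Genes around the family were counted from lists fixed by function. None of the 17 other Bcl2 family genes tested was called in Tg_spleen vs WT_spleen, where 15.7% of all genes were called higher and 12.2% lower. In Tg_lymphnode vs WT_spleen 1 was higher and 5 were lower, where 20.3% of all genes were called higher and 17.7% lower. The BH3-only gene Bmf had 72.1, 47.0 and 23.7 FPKM in Tg_lymphnode, 160 to 275 FPKM in Tg_spleen and 185 to 240 FPKM in WT_spleen, with the tumours below every other library. Its fold change was -2.23 in Tg_lymphnode vs WT_spleen and -2.36 in Tg_lymphnode vs Tg_spleen (limma adjusted p = 0.0105). The survival genes Bcl2a1b and Bcl2a1d fell, with fold changes of -1.99 and -1.83 in Tg_lymphnode vs WT_spleen, but they are near-identical copies whose reads may be split between them. Bok, a relative of Bax, rose by 2.60 in the same comparison, in which all 8 fibroblast markers rose too (median 4.22). It had 21.9, 10.1 and 9.0 FPKM in Tg_lymphnode, 1.3 to 16.5 FPKM in Tg_spleen and 0.8 to 3.7 FPKM in WT_spleen, and 38.3 to 60.1 FPKM in total RNA of the fibroblasts, a scale of its own. The part of stromal cells in the rise of Bok was not tested. Without Tg_lymphnode replicate 3 the 4 fold changes against WT_spleen were -1.80 for Bmf, -2.26 for Bcl2a1b, -2.20 for Bcl2a1d and 2.84 for Bok, each still called by limma (adjusted p 0.000267 to 0.0107).

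All 4 listed outer membrane channel genes were called higher in both Tg_lymphnode and Tg_spleen vs WT_spleen. Of all genes tested, 20.3% and 15.7% were called higher in these comparisons. Vdac1, the voltage-dependent anion channel, averaged 960 ± 80.2 FPKM in Tg_lymphnode (SD, n = 3), 814 ± 290 FPKM in Tg_spleen (SD, n = 4) and 351 ± 38.1 FPKM in WT_spleen (SD, n = 4). Among 8 apoptosome and caspase genes tested in Tg_spleen vs WT_spleen, Cycs (cytochrome c) rose by 0.99 and Casp6 fell by 0.71. Among caspase inhibitors and release factors, Birc5 (survivin, also a mitosis gene) rose by 2.69 in Tg_spleen and 3.04 in Tg_lymphnode vs WT_spleen, and Birc3 fell, with fold changes of -0.83 and -1.64. Without Tg_lymphnode replicate 3 the 4 channel genes, Birc5 (3.30) and Birc3 (-2.02) were still called in Tg_lymphnode vs WT_spleen. Of the regulators, Trp53 (p53) rose by 0.67 in Tg_spleen and Foxo1, a transcription factor of survival pathways, fell by 1.03. Cdkn2a, whose products include the p53 activator p19Arf, had 5.2, 502 and 12.6 FPKM in Tg_lymphnode, 8.9 to 37.6 FPKM in Tg_spleen and 0.0 to 2.6 FPKM in WT_spleen. Tumour replicate 2 thus stood apart from all other libraries in Cdkn2a. It is the tumour with the lowest Bbc3 and Bax, but also with the lowest Bcl2l1, Pmaip1, Bid and Bad and the highest Bcl2. A link of these levels to Cdkn2a was not tested.

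In fibroblasts the survival gene Bcl2l1 had the largest fold change of the members tested at 16 h of OHT. It had 21.3, 20.1, 18.7 and 18.0 FPKM at 0 h, 11.3, 12.1, 14.6 and 14.6 at 4 h, 13.2, 17.1, 13.7 and 12.2 at 8 h, and 14.3, 9.46, 13.1 and 8.38 at 16 h. All 12 OHT libraries lay below all 4 libraries at 0 h. Bcl2l1 fell by 0.79 on the log2 scale in OHT_16h vs OHT_0h (SE 0.17, limma adjusted p = 0.00513). At 4 h the fold change was -0.56 (95% interval -0.91 to -0.21, adjusted p = 0.0624) and at 8 h -0.47 (95% interval -0.82 to -0.12, adjusted p = 0.186). With median ratio scaling Bcl2l1 was called at all 3 times, at -0.51 (adjusted p = 0.00485), -0.41 (adjusted p = 0.0284) and -0.64 (adjusted p = 0.000567) for 4, 8 and 16 h. At 4 h it was also called without OHT_16h replicate 1 (adjusted p = 0.035) or 4 (adjusted p = 0.0366), which share the fit.

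Of the other survival genes, Mcl1 had 78.8, 63.6, 77.8 and 74.6 FPKM at 0 h, 50.0, 54.4, 59.3 and 77.8 at 4 h, 61.6, 53.5, 60.8 and 60.8 at 8 h, and 58.2, 45.1, 64.1 and 56.9 at 16 h. The 8 h libraries lay below those of 0 h, while the 4 h and 16 h libraries overlapped them. In OHT_16h vs OHT_0h the fold change was -0.40 (95% interval -0.67 to -0.13, limma adjusted p = 0.0605), and it was called without OHT_4h replicate 4 or OHT_16h replicate 1 or 3. Mcl1 was also called at 4 h without OHT_4h replicate 4. Bcl2 stayed between 3.44 and 6.64 FPKM in all 16 libraries, and its largest fold change was 0.17 at 8 h (95% interval -0.25 to 0.60, adjusted p = 0.811).

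The effectors did not pass at any time. Bax had 41.9 to 53.4 FPKM at 0 h, 44.5 to 54.8 at 4 h, 47.1 to 56.1 at 8 h and 42.6 to 55.7 at 16 h, and its fold change at 16 h was 0.10 (95% interval -0.14 to 0.34, limma adjusted p = 0.659). Bak1 had 50.3 to 80.7 FPKM at 0 h, 53.9 to 62.4 at 4 h, 42.8 to 63.3 at 8 h and 38.1 to 68.0 at 16 h, and its fold change at 16 h was -0.34 (95% interval -0.70 to 0.02, adjusted p = 0.243). The values of both genes at 4, 8 and 16 h overlapped those at 0 h.

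**Figure D4:**
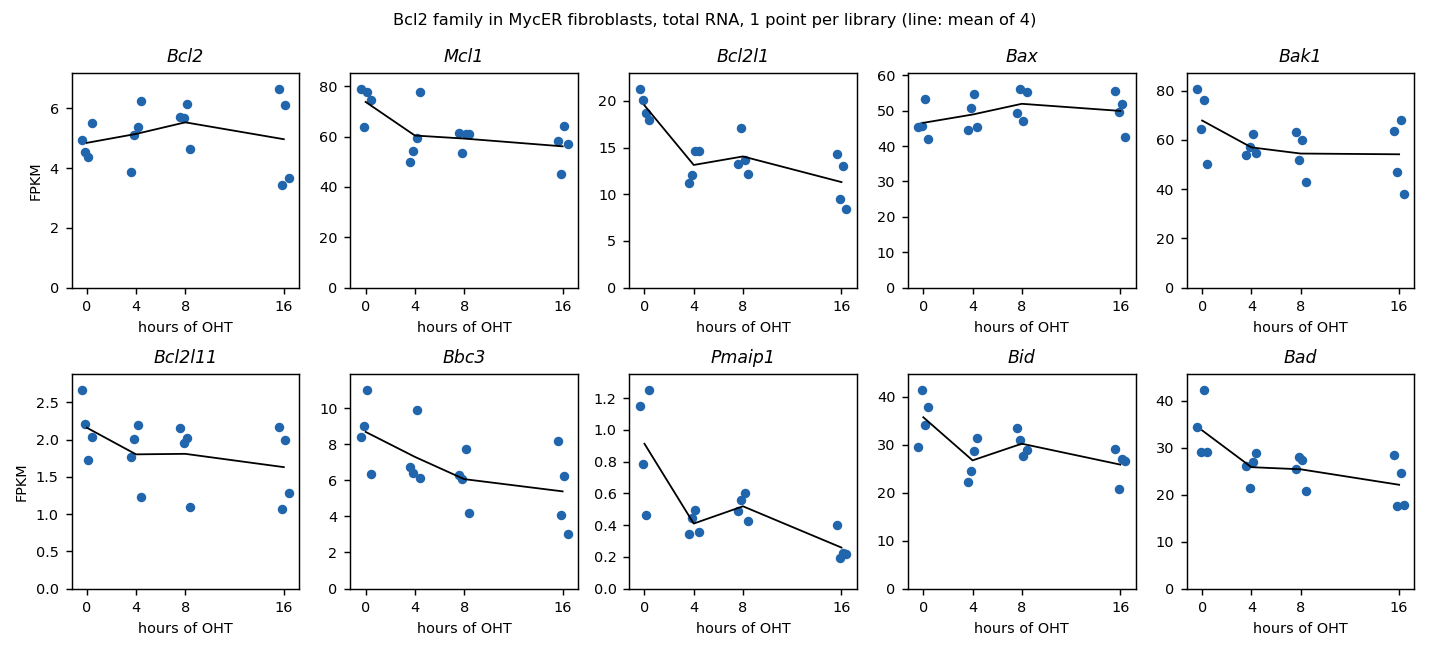
FPKM of the 10 Bcl2 family genes (linear axis from 0, scaled per gene) against hours of OHT in MycER fibroblasts, total RNA; each point is 1 of 4 libraries per time and the line joins the means. Bcl2l1 averages 19.5 FPKM at 0 h and 11.3 FPKM at 16 h, and Bax averages 46.6 and 50.0 FPKM at those times.

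Among BH3-only genes, Bad and Bid were lower at 16 h. Bad had 34.4, 29.0, 42.3 and 29.1 FPKM at 0 h, 21.3 to 28.9 at 4 h, 20.7 to 28.0 at 8 h, and 28.5, 17.5, 24.6 and 17.7 at 16 h, with every OHT library under those of 0 h. Bad fell by 0.61 in OHT_16h vs OHT_0h (SE 0.17, limma adjusted p = 0.0255). Bid had 29.6, 41.4, 34.1 and 37.8 FPKM at 0 h, 22.2 to 31.4 at 4 h, 27.6 to 33.5 at 8 h, and 29.2, 20.7, 26.9 and 26.5 at 16 h, with only the 16 h libraries wholly below those of 0 h. Bid fell by 0.46 in OHT_16h vs OHT_0h (SE 0.14, adjusted p = 0.0463). The call of Bad was lost without OHT_0h replicate 1 or 3 or OHT_16h replicate 2 or 4 (adjusted p 0.068 to 0.102). That of Bid was lost without OHT_0h replicate 2, 3 or 4, OHT_4h replicate 2, OHT_8h replicate 1, 2 or 3 or OHT_16h replicate 2, 3 or 4 (adjusted p 0.0542 to 0.167), and with median ratio scaling (-0.30, adjusted p = 0.109) or quantile normalization (-0.33, adjusted p = 0.0559).

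Bbc3 had 8.40, 8.99, 11.0 and 6.34 FPKM at 0 h, 6.15 to 9.91 at 4 h, 4.18 to 7.74 at 8 h, and 8.19, 4.08, 6.26 and 3.02 at 16 h, with overlap at every time. Its fold change was -0.24 at 4 h, -0.49 at 8 h and -0.70 at 16 h (95% interval -1.23 to -0.17, limma adjusted p = 0.089). With median ratio scaling (-0.56), quantile normalization (-0.48) or without OHT_16h replicate 1 (-0.92), Bbc3 was called at 16 h. Bcl2l11 stayed between 1.07 and 2.67 FPKM and was called at no time. Pmaip1 was near the limit of the values and was left out of the fit by the 1 FPKM filter. It had 1.15, 0.783, 0.463 and 1.25 FPKM at 0 h, 0.342 to 0.497 at 4 h, 0.426 to 0.603 at 8 h, and 0.398, 0.194, 0.223 and 0.217 at 16 h, where all libraries lay below those of 0 h. Fitted with no filter over 21634 genes, Pmaip1 changed by -0.87 in OHT_16h vs OHT_0h (SE 0.16, limma adjusted p = 0.00422), by -0.60 at 4 h (adjusted p = 0.0633) and by -0.44 at 8 h (adjusted p = 0.293).

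**Figure D5:**
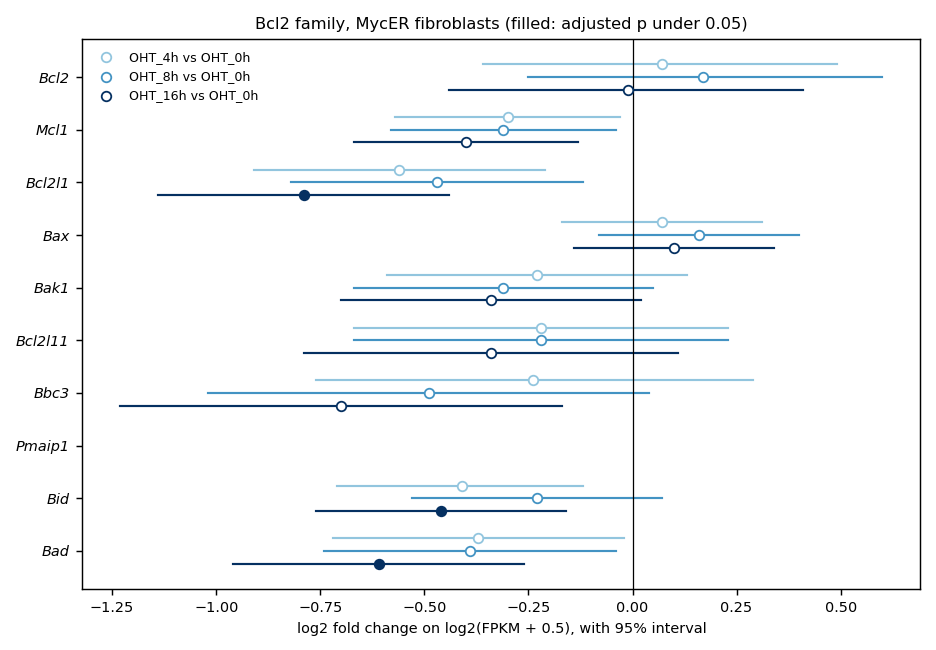
Log2 fold change (x axis) of the 9 Bcl2 family genes that passed the filter in fibroblasts after 4, 8 and 16 h of OHT, each vs OHT_0h; points are limma coefficients, bars 95% intervals, and filled points have an adjusted p under 0.05. The filled points are Bcl2l1 (-0.79), Bid (-0.46) and Bad (-0.61) at 16 h.

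Over the family, none of the 9 members tested was called in OHT_4h vs OHT_0h by limma, where 1.9% of all 12934 genes were called higher and 2.88% lower, and 4 members and 16.4% of all genes had an unadjusted p under 0.05. None was called in OHT_8h vs OHT_0h, where 1.21% were called higher and 0.982% lower, and 3 members and 12.9% of all genes had an unadjusted p under 0.05. In OHT_16h vs OHT_0h no member was higher and 3 were lower, where 1.76% of all genes were called higher and 7.75% lower. The count of lower calls moved with single libraries: the 1002 genes became 448 without OHT_16h replicate 2, 496 without OHT_16h replicate 4, 560 without OHT_0h replicate 2, 663 without OHT_0h replicate 1 and 1886 without OHT_16h replicate 1, and the members called became 1, 1, 2, 2 and 5. The median fold change at 16 h was -0.40 over the members and -0.14 over all genes. With median ratio scaling the median of all genes was 0.01, and 831 genes were called higher and 1095 lower, against 228 higher and 1002 lower on the deposited scale. The members called with that scaling were Bcl2l1, Bad and Bbc3, each lower, and Bcl2 alone turned sign (0.13). In OHT_16h vs OHT_4h no member and no other gene was called (0.0% higher and 0.0% lower), with 218 genes and 0 members at an unadjusted p under 0.05, and the members' median was -0.11, as was that of all genes. Comparisons with OHT_0h share its 4 libraries. Medians over all genes were lowest in OHT_16h replicate 4 (2.11 FPKM), OHT_8h replicate 4 (2.37 FPKM) and OHT_16h replicate 2 (2.53 FPKM), against 2.89 to 3.96 FPKM elsewhere. Without OHT_16h replicate 2 and the libraries numbered 4, the count of members called was 5 at 4 h (Mcl1, Bcl2l1, Bak1, Bid and Bad), 1 at 8 h and 1 at 16 h, with Bcl2l1 at -0.65, -0.44 and -0.53 (limma adjusted p = 0.000668, 0.049 and 0.0238). Over all genes that fit called 2113 of 12997 at 4 h, 1043 of 12997 at 8 h and 1496 of 13156 at 16 h. The reported fit called 618, 283 and 1230 of 12934 genes at these times.

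Around the family in fibroblasts, no gene of the lists was called higher at 16 h, where 1.76% of all genes tested were called higher and 7.75% lower. Apaf1, the core of the apoptosome, fell by 0.85 (limma adjusted p = 0.00241) and Casp8, the initiator caspase that cleaves Bid, fell by 0.9 (adjusted p = 0.00566) in OHT_16h vs OHT_0h. Of the death receptor list, Fas and its inhibitor Cflar fell, with fold changes of -0.76 and -1.0 at 16 h and -0.88 and -0.77 at 4 h. Of the related proteins, Bnip3, Bnip3l and Bcl2l12 fell, with fold changes of -0.71, -0.55 and -0.7 at 16 h, of 7 tested. The 4 channel genes were not called at any time.

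In nascent RNA, with 1 library at each time and thus no test, Bcl2l1 showed the largest difference of the members. It stood at 6.68 FPKM in 4sU_4h and 11.5 FPKM in 4sU_0h, a log2 ratio of -0.74, and its place among all genes was percentile 66.6 in 4sU_4h and 79.7 in 4sU_0h. The middle 90% of all 12375 genes compared ran from -0.51 to 0.57, with a median of 0.02. Pmaip1, at 0.34 FPKM in 4sU_4h and 0.636 FPKM in 4sU_0h, had a log2 ratio of -0.44 with the pseudocount of 0.5 FPKM and -0.74 with 0.1 FPKM. Bcl2 stood at 4.93 and 3.45 FPKM in 4sU_4h and 4sU_0h (0.46) and Bax at 28.1 and 21.8 FPKM (0.36). Mcl1, at 29.99 and 29.62 FPKM, and Bak1, at 14.6 and 14.5 FPKM, were nearly level (0.02 and 0.01). The log2 ratio was -0.31 for Bcl2l11, -0.16 for Bbc3, -0.10 for Bid and -0.22 for Bad. Myc itself stood at 25.2 FPKM in 4sU_4h and 33.1 FPKM in 4sU_0h.

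The members also differed in how their place among all genes compared between nascent and total RNA at 0 h, which is given side by side because the scales differ. Bcl2l11 stood at percentile 60.7 in 4sU_0h and at 46.0 to 47.7 in OHT_0h. Bak1 stood at percentile 85.2 in 4sU_0h and at 91.8 to 98.2 in OHT_0h. Mcl1 stood high in both, at percentile 96.8 in 4sU_0h and 95.4 to 97.9 in OHT_0h.

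Genes most alike in level pattern were named by the highest Pearson r of log2(FPKM + 0.5), as a description over libraries that share group and processing. Over the 11 B cell and tumour libraries and 10816 genes, Bcl2 was most like Stap1, Gimap8 and Arl4d (each 0.99), Mcl1 most like Plekho2 and S1pr1 (0.99) and Fam49b (0.98), and Bbc3 most like Nacc2 (0.96), Mtrf1l (0.95) and Impad1 (0.94). Over the 16 fibroblast libraries and 10459 genes, Mcl1 was most like Ssr3 (0.99), Sept7 and Sept2 (0.98), Bcl2l1 most like Lrrc8e (0.99), Chrnb1 and Sec24d (0.98), and Pmaip1 most like Adamts6 and Lrrtm2 (0.89) and Nelfb (0.88).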

How the data were processed

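The data are 11 B cell and tumour libraries and 18 fibroblast libraries, each with a single value for a gene. Per the file headers the unit is FPKM. The deposited B cell files carry 1 decimal and the fibroblast files 3. Per the submitters' processing notes, reads were placed on mm9, with TopHat2 2.0.8, TopHat, SAMtools and HTSeq 0.5.3p9 named. Annotation, strand use, duplicate handling and the denominator are not given in the sources used here, and no counts were analysed, so no count test was run.

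Levels were taken as log2(FPKM + 0.5), which understates changes of low genes. A gene was fitted if it reached 1 FPKM in a number of libraries equal to the size of the smaller group. The fit was limma's (version 3.58.1, R 4.3.3), by lmFit and a trended, robust eBayes. Only the groups being compared entered a B cell fit, whereas all 16 total RNA fibroblast libraries entered a single fit. P-values are two-sided, from limma's moderated test, adjusted by Benjamini-Hochberg over all genes tested, and a call is an adjusted p under 0.05. Tables and figures used Python 3.11.15, NumPy 2.4.6, pandas 2.3.3 and Matplotlib 3.10.9. The fit was tested on simulated data.

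All 10 members are named. Of each function list, up to 3 called genes with the largest fold change may be named, and of the genes alike in pattern the 3 with the highest r, leaving out predicted, clone-named and small RNA genes. Tpx2, Cox4i2, Id1, Mcts2 and H13 were chosen as neighbours after the level of Bcl2l1 was seen. The sequences shown were chosen for the calls of their genes, the Bbc3 window among 3 for its CACGTG. The members and lists were chosen with earlier results of these data known. The choices varied were the pseudocount (0.1 or 1), the filter (none or 5 FPKM), median ratio scaling, quantile normalization, other groups in the fit, a replicate block, a split or covariate by Rpph1, and leaving out each library. Added after the data were seen were an expanded scale meant to undo the levelling of fibroblast values and a fit without OHT_16h replicate 2 and the libraries numbered 4. Neighbour order and promoter windows are on GRCm38.p6, and no coordinates of mm9 are used. Results for some listed genes are not reported here.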

Additional observations from a re-analysis of the deposited data

Results flagged for a closer look

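Of 60 member values in groups of 4 libraries that were examined for 1 library far from the rest, 3 stood out, and chance alone marks about 1 group in 20. Bbc3 was at 9.909 FPKM in OHT_4h replicate 3, above the 6.15 to 6.728 FPKM of the other libraries at 4 h. Mcl1 was at 53.47 FPKM in OHT_8h replicate 2, below the 60.837 to 61.582 FPKM of the others at 8 h, whose own spread is very small. Pmaip1 was at 0.398 FPKM in OHT_16h replicate 1, above the 0.194 to 0.223 FPKM of the others at 16 h. Groups of 3 were not examined in this way, so the 1571 FPKM of Bcl2l1 in Tg_lymphnode replicate 3 is not among them.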

How the results depend on the processing

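Of 1422 fold changes of single members under the alternatives, 1300 kept direction and side of the threshold, 50 lost a call, 27 gained one, and 45 turned sign, each of them a value that was called neither in the report nor under the alternative. Median ratio scaling moved the count of members called to 1 at 4 h and 1 at 8 h (0 in the reported fit), and quantile normalization to 2 and 1, and to 0 in Tg_lymphnode vs Tg_spleen (1 in the reported fit), where it split the calls of all genes into 364 higher and 369 lower, against 523 and 351 as reported. With only the 2 groups compared in the fit, 1 member was called at 4 h and 1 at 16 h (3 in the reported fit). Libraries with high Rpph1 alone gave 1 member in Tg_spleen vs WT_spleen (3 in the reported fit). Without OHT_16h replicate 2 and the libraries numbered 4 the counts were 5, 1 and 1 at 4, 8 and 16 h, where 2113, 1043 and 1496 of all genes tested were called. Leaving out 1 library at a time gave 2 to 4 members in Tg_lymphnode vs WT_spleen, 0 to 1 in Tg_lymphnode vs Tg_spleen, 0 to 1 at 4 h and 1 to 5 at 16 h. The cause of these moves was not tested, and fits on fewer libraries have less power by construction.

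The reported fit did not treat replicate numbers as pairs, and the B cell groups share only 2 numbers per pair. A replicate block thus rests each B cell contrast on those 2 numbers and leaves 1 degree of freedom for the spread. Its few calls and its sign turns in B cells therefore cannot show whether a result depends on pairing. Same-numbered fibroblast libraries correlated at 0.017 to 0.498 in their deviations, highest for those numbered 4 (0.327 to 0.498). OHT_0h replicate 4 correlated at -0.368 to -0.00226 with OHT libraries of other numbers. Whether fibroblast libraries of the same number share a batch is not given by the labels and was not tested. With a replicate block the members called were 1 in Tg_spleen vs WT_spleen, 0 in Tg_lymphnode vs WT_spleen, 0 in Tg_lymphnode vs Tg_spleen, 1 at 4 h and 6 at 16 h. The genes called of all tested under the block were 840 in Tg_spleen vs WT_spleen (3918 without), 0 in both tumour comparisons (5616 and 874 without), 1105 at 4 h (618 without), 729 at 8 h (283 without) and 2071 at 16 h (1230 without). Leaving out 1 library gave 2151 to 5084 genes in Tg_spleen vs WT_spleen, 4246 to 6655 in Tg_lymphnode vs WT_spleen, 297 to 920 in Tg_lymphnode vs Tg_spleen, and 265 to 784, 147 to 391 and 674 to 2065 at 4, 8 and 16 h.

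Genes called at 4, 8 and 16 h came to 1476, 992 and 1926 with median ratio scaling and to 1763, 1165 and 2052 with quantile normalization (1053 of them lower at 16 h), and to 1146 and 509 at 4 and 8 h with 2 groups in the fit. With all 3 B cell groups in 1 fit they came to 2324 in Tg_spleen vs WT_spleen and 2127 in Tg_lymphnode vs Tg_spleen, and to 1426 in the high Rpph1 libraries. On the expanded scale the fold change of Mcl1 at 16 h was -0.61 (adjusted p = 0.0613) and no member changed its call. Values with 1 decimal near 0 and the ceiling of fibroblast values limit what low and abundant genes can show.

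The following values turned sign. In Tg_spleen vs WT_spleen, Bcl2l1 was -0.27 and Bcl2l11 0.23 in the high Rpph1 libraries, and Bcl2l11 was 0.01 and Bid -0.04 under the replicate block. The block gave Bad 0.38 in Tg_lymphnode vs WT_spleen and Bid -0.07 in Tg_lymphnode vs Tg_spleen. In OHT_16h vs OHT_0h, Bcl2 was 0.13 with median ratio scaling, 0.22 with quantile normalization and 0.43 without OHT_16h replicate 2 and the libraries numbered 4. In OHT_16h vs OHT_4h, median ratio scaling gave Bcl2 0.02, Mcl1 0.01, Bak1 0.0 and Bid 0.06, and quantile normalization gave Bcl2 0.06 and Bid 0.05. There the fit without OHT_16h replicate 2 and the libraries numbered 4 gave Bcl2 0.39, Mcl1 0.17, Bcl2l1 0.12, Bcl2l11 0.05, Bak1 0.19, Bid 0.16 and Bad 0.1, and, with its sign kept, Bax 0.11. Leaving out 1 library gave ranges of -0.01 to 0.48 for Bcl2l1 and -0.14 to 0.09 for Bcl2l11 in Tg_spleen vs WT_spleen. In Tg_lymphnode vs WT_spleen the ranges were -0.02 to 0.24 for Bak1 and -0.52 to 0.37 for Bad, and in Tg_lymphnode vs Tg_spleen -0.01 to 0.23 for Bid and -0.68 to 0.21 for Bad. For Bcl2 they were -0.02 to 0.18 at 4 h and -0.16 to 0.13 at 16 h vs 0 h. In OHT_16h vs OHT_4h they were -0.22 to 0.06 for Bcl2, -0.18 to 0.03 for Mcl1, -0.35 to -0.11 for Bcl2l1, -0.26 to 0.01 for Bcl2l11, -0.03 to 0.1 for Bax, -0.23 to 0.05 for Bak1, -0.13 to 0.05 for Bid and -0.37 to -0.14 for Bad, so that Bcl2l1 and Bad kept their sign there.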

Other observations

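In OHT_0h replicate 4, Bcl2a1b, a survival relative of Bcl2, stood at 9.02 FPKM, against 0.075, 0.232 and 0.076 FPKM in the other libraries at 0 h and 0.0 to 0.316 FPKM in all 12 OHT libraries. Its near-identical copy Bcl2a1d stood at 6.31 FPKM in the same library and at 0.145 to 0.163 FPKM in the others at 0 h. Macrophage markers moved with them. Of 10 macrophage and monocyte markers, 8 were higher in this library than in the others at 0 h, none was at 0, and they summed to 106.5 FPKM, against 49.6 to 60.3 FPKM in the others at 0 h. Lyz2, a lysozyme of macrophages, stood at 34.5 FPKM, against 0.093 to 0.097 FPKM, and Csf1r, a macrophage growth factor receptor, at 4.56 FPKM, against 1.72 to 2.13 FPKM. The part of such cells was not tested, and the 4 genes named here were chosen after their values were seen.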
